A study of Rattus norvegicus with 58 samples.

Results

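The Cyp3a genes encode the cytochromes P450 of the CYP3A subfamily, and all 4 that the array names were followed here in liver and kidney of rats dosed with 4-methylcyclohexanemethanol (MCHM), a cyclic alcohol used in coal washing. The members were the probe sets whose only gene symbol in the platform annotation begins with Cyp3a. They were 4 of the 31099 probe sets, and 4 of 14217 named genes, with 1 probe set each for Cyp3a23-3a1 (Entrez gene 25642), Cyp3a18 (252931), Cyp3a9 (171352) and Cyp3a2 (266682).

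The animals were male rats of the Harlan Sprague-Dawley stock that received MCHM by gavage, that is, by stomach tube, and were profiled at 5 days. No gene was altered in any group. Doses were 0, 0.1, 1, 10, 100, 300 and 500 mg/kg, and the groups with 0 mg/kg served as the controls of their organ. Each organ gave 29 arrays, 4 from each dosed group and 5 from its controls, which the labels number as biological replicates. The labels do not say which liver and kidney arrays came from the same animal. Whole-organ RNA was hybridised to Affymetrix Rat Genome 230 2.0 arrays, and expression is given as the deposited log2 RMA value, a background-corrected, normalised intensity. Array medians lay at 5.26 to 5.32 in liver and 5.33 to 5.38 in kidney after the authors' normalisation, and the number of arrays limits the precision. In liver the 6 measured hepatocyte markers averaged 13.80 to 13.82 at 500 mg/kg and 13.84 to 13.93 in controls.

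CYP3A enzymes sit in the endoplasmic reticulum, mainly of hepatocytes and enterocytes, and oxidise steroids, bile acids and a wide range of drugs. Their genes are classical targets of the pregnane X receptor PXR (Nr1i2) and the constitutive androstane receptor CAR (Nr1i3), which bind DNA with the retinoid X receptor when foreign compounds or steroids activate them. In rats Cyp3a23-3a1 is the form known for induction by steroids such as dexamethasone, Cyp3a2 and Cyp3a18 are higher in adult males, and Cyp3a9 is higher in females.

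All 4 genes lie on rat chromosome 12. In the RefSeq order of protein-coding genes in build GRCr8, Cyp3a2 and Cyp3a23-3a1 were direct neighbours, and Cyp3a18 stood at the far end of the same cluster. Cyp3a9 lay apart, with 110 protein-coding genes between Cyp3a23-3a1 and Cyp3a62 and 3 more before Cyp3a9. Among its protein-coding entries the annotation also lists Cyp3a73, Cyp3a2l1, Cyp3a62 and Cyp3a71-ps, for which the array has no probe set under that name. Entries of other kinds were not read. Whether RNA of those copies reaches the 4 probe sets was not tested, so each value is that of its probe set.

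The RefSeq promoter windows of the 4 genes (build GRCr8, 250 bases before the start of transcription and 50 from it, written 5′ to 3′ on the gene's strand) are shown because the neighbours Cyp3a23-3a1 and Cyp3a2, of which limma called only the first at 500 mg/kg, had the most similar windows. Capitals mark the hexamers AGTTCA and AGGTCA and their reverse complements, in pairs of which PXR and CAR are known to bind, and a pair spaced by 3 bases is in capitals throughout.
Cyp3a23-3a1 (chr12:14398754-14399053, minus strand): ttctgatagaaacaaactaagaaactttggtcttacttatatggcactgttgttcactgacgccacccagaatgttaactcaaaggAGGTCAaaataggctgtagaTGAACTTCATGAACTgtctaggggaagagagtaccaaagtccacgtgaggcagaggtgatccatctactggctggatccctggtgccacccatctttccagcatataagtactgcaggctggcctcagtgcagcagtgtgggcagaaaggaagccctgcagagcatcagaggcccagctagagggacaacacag
Cyp3a18 (chr12:13994062-13994361, plus strand): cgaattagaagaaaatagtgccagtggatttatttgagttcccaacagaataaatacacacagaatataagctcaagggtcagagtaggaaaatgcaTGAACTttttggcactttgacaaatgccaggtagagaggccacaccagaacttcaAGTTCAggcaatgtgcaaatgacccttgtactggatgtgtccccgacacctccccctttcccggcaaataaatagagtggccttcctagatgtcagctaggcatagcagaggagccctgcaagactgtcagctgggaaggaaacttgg
Cyp3a9 (chr12:21960111-21960410, minus strand): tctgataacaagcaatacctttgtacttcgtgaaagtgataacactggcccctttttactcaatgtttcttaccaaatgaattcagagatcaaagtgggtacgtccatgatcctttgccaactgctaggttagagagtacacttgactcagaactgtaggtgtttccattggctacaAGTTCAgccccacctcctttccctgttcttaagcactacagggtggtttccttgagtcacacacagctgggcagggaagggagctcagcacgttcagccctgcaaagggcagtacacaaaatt
Cyp3a2 (chr12:14343808-14344107, minus strand): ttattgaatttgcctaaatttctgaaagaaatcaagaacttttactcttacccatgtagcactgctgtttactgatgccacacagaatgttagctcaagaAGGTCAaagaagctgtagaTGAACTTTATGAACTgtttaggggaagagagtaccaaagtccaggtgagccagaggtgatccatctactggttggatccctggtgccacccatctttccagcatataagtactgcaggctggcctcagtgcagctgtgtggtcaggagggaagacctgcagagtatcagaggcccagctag

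The windows of Cyp3a23-3a1 and Cyp3a2 were 80.6% identical in a global alignment, against 54.2% to 58.7% for the other 5 pairs. Both held a direct repeat of 2 hexamers spaced by 3 bases, at -144 to -130 in Cyp3a23-3a1 and at -131 to -117 in Cyp3a2, counted from the start of transcription. The Cyp3a23-3a1 stretch is TGAACTTCATGAACT and the Cyp3a2 stretch is TGAACTTTATGAACT. Counted from 1 at the 5′ end of the 15-base stretch, they differed by C8T, a base of the spacer. Of 27457 genes with a window, 0.106% held such a repeat in either direction, built from AGTTCA, from AGGTCA or from the same hexamers with a first base G. None was found in the windows of Cyp3a18 or Cyp3a9, and direct repeats spaced by 4 bases or everted repeats spaced by 6 bases were found in none of the 4. AGTTCA occurred 2 times in Cyp3a23-3a1, Cyp3a18 and Cyp3a2, counting those inside the repeats, and 1 time in Cyp3a9. Of all genes, 15.6% held it and 16.9% held AGGTCA, which occurred 1 time each in Cyp3a23-3a1 and Cyp3a2. These matches describe letters within 300 bases and not occupancy.

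The first question was which Cyp3a transcripts changed in liver and from which dose. Cyp3a23-3a1 and Cyp3a18 were higher at 500 mg/kg, by 1.49 and 1.53 times, and only Cyp3a23-3a1 passed the test at 300 mg/kg. Cyp3a9 passed the test for a trend over the dose series but was called at no single dose. Cyp3a2 was called in none of these tests. The test was limma over all 11275 genes with a brightest probe set above the array's 40th percentile on at least 4 liver arrays, and a gene was called at an adjusted p under 0.05 (Benjamini-Hochberg). All 4 Cyp3a genes passed that filter on all 29 liver arrays. At 500 mg/kg 2 of the 4 were called, both higher, where 0.958% of all genes were called and 0.488% were called higher. At 300 mg/kg 1 of the 4 was called, higher, where 0.0266% of all genes were called and 0.0177% were called higher. The median change of the 4 was 0.48 at 300 mg/kg and 0.59 at 500 mg/kg, against -0.01 and 0.01 over all genes tested.

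**Figure D1:**
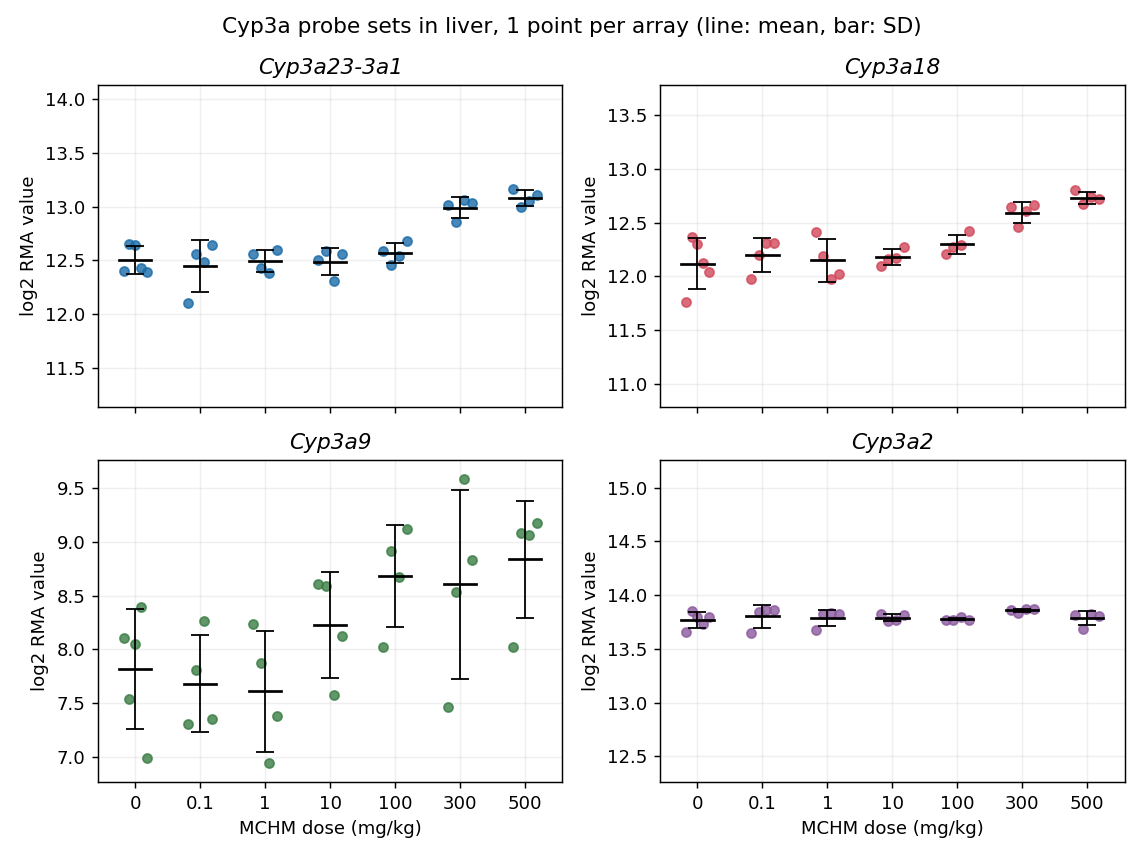
Log2 RMA value (y axes, each spanning 3 units) of the 4 Cyp3a probe sets against MCHM dose in mg/kg (x axes), 1 point per liver array, with each group's mean as a line and its SD as a bar. Cyp3a23-3a1 and Cyp3a18 stand above all controls on every array at 300 and 500 mg/kg, Cyp3a9 scatters from 6.94 to 9.58, and Cyp3a2 stays within 13.65 to 13.87.

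Cyp3a23-3a1, the inducible form, had liver values of 12.40, 12.65, 12.65, 12.43 and 12.39 on the 5 control arrays. At 100 mg/kg they were 12.59, 12.46, 12.54 and 12.68, at 300 mg/kg 13.02, 12.85, 13.06 and 13.03, and at 500 mg/kg 13.17, 13.00, 13.05 and 13.11. Every array at 300 and 500 mg/kg lay above every control, whereas 1 of 4 did so at 100 mg/kg and 0 of 4 at each of 0.1, 1 and 10 mg/kg. The group means kept within 12.45 ± 0.24 (SD, n = 4) at 0.1 mg/kg and 12.57 ± 0.09 (SD, n = 4) at 100 mg/kg, with the controls between them at 12.50 ± 0.13 (SD, n = 5). The order of the 5 lowest dose levels is thus within the spread of their arrays. The mean was 12.99 ± 0.09 at 300 mg/kg and 13.08 ± 0.07 at 500 mg/kg (SD, n = 4 each).

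Against the controls Cyp3a23-3a1 rose by 0.49 on the log2 scale at 300 mg/kg (SE 0.08, limma adjusted p = 0.0138) and by 0.58 at 500 mg/kg (SE 0.08, limma adjusted p = 0.00105). Its p at 500 mg/kg was the smallest of the 11275 genes, and at 300 mg/kg it ranked 2. A separate exact permutation test of the arrays of each dose against the controls gave a two-sided p of 0.00794 at both doses, the smallest that 126 splits allow. The call at 300 mg/kg depended on single arrays. It was lost without control array 1 (adjusted p = 0.0711), 4 (0.0709) or 5 (0.0556), and likewise without array 1 (0.0812), 3 (0.172) or 4 (0.0954) of the dosed group, while the change itself kept within 0.46 to 0.53. The call at 500 mg/kg was kept in each of the 9 fits without 1 array, with adjusted p at most 0.00536.

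Cyp3a18, a form higher in males, had liver values of 11.76, 12.36, 12.30, 12.13 and 12.04 on the control arrays. They were 12.21, 12.28, 12.29 and 12.42 at 100 mg/kg, 12.65, 12.45, 12.61 and 12.66 at 300 mg/kg and 12.80, 12.67, 12.74 and 12.72 at 500 mg/kg. As for Cyp3a23-3a1, the groups at 300 and 500 mg/kg did not overlap the controls, and those at lower doses did. The change was 0.61 at 500 mg/kg (SE 0.09, limma adjusted p = 0.00105). At 300 mg/kg it was 0.47 (SE 0.09, 95% interval 0.28 to 0.67) and missed the threshold with a limma adjusted p of 0.0717. The lowest control, at 11.76, weighed on that comparison, which gave 0.38 (adjusted p = 0.23) without it, while adjusted p fell to 0.0174 without control array 2. With all arrays the exact permutation p was 0.0159 at 300 mg/kg and 0.00794 at 500 mg/kg, both two-sided. Among all genes 1.39% had groups that did not overlap, with every dosed array higher, at 300 mg/kg and 2.7% at 500 mg/kg.

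Cyp3a9, a form higher in females, varied most between animals. Its control values were 8.11, 7.54, 8.05, 8.39 and 6.99, a range wider than any of the changes measured. At 100 mg/kg the values were 8.03, 8.91, 8.67 and 9.12, at 300 mg/kg 7.47, 8.53, 9.58 and 8.83, and at 500 mg/kg 8.02, 9.08, 9.07 and 9.17. In each of these 3 groups 3 of 4 arrays exceeded every control and 1 did not. The change was 0.87 at 100 mg/kg (SE 0.35, limma adjusted p = 0.999), 0.79 at 300 mg/kg (SE 0.35, adjusted p = 0.596) and 1.02 at 500 mg/kg (SE 0.35, adjusted p = 0.16). The 95% interval at 500 mg/kg, 0.30 to 1.74, includes changes from below to well above those of Cyp3a23-3a1 and Cyp3a18. The exact permutation p was 0.0556 at 100 and at 500 mg/kg and 0.143 at 300 mg/kg, all two-sided.

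Cyp3a2, the main constitutive form of male rat liver, stayed within a range of 0.23 over all 29 liver arrays. It had 13.81, 13.69, 13.83 and 13.80 at 500 mg/kg, against 13.66, 13.85, 13.80, 13.73 and 13.80 in controls. The change was 0.02 at 500 mg/kg (SE 0.04, 95% interval -0.07 to 0.10, limma adjusted p = 0.917). At 300 mg/kg the 4 arrays lay between 13.84 and 13.87, 3 of them above every control, and the change was 0.09 (SE 0.04, limma adjusted p = 0.616). The exact permutation p at 300 mg/kg was 0.0397, two-sided and unadjusted. The Cyp3a2 values in liver lay near the top of the scale, where the highest value of any probe set on any array was 14.85. How far RMA values flatten there was not tested.

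**Figure D2:**
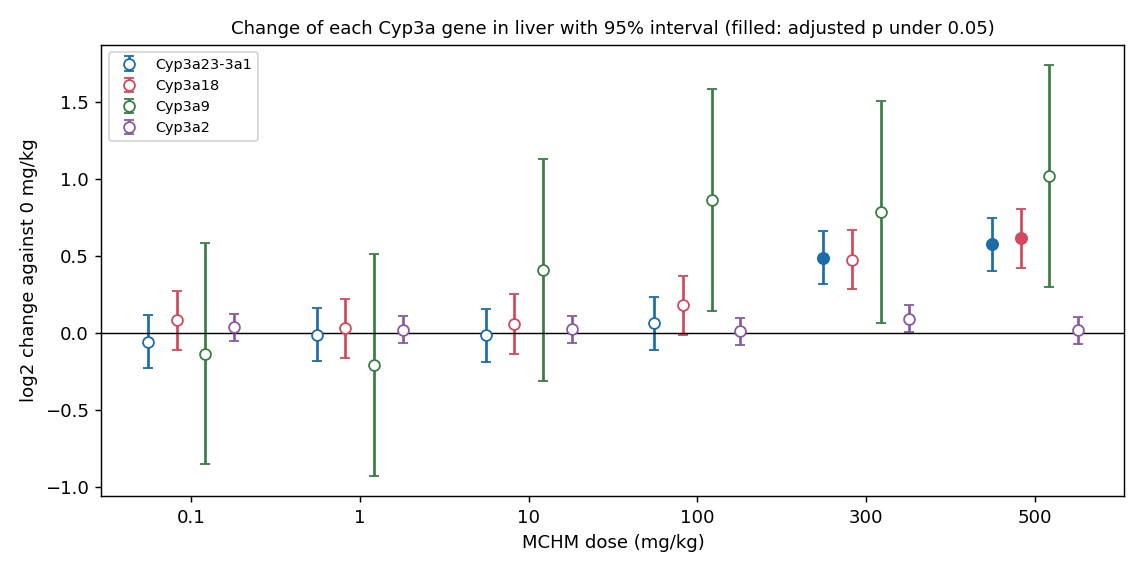
Log2 change in liver against the 0 mg/kg group (y axis) for each Cyp3a gene at each MCHM dose (x axis, mg/kg), with 95% intervals from limma; filled points had an adjusted p under 0.05. Cyp3a23-3a1 is filled at 300 and 500 mg/kg and Cyp3a18 at 500 mg/kg, Cyp3a9 has intervals several times as wide, and Cyp3a2 stays between 0.01 and 0.09.

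No Cyp3a gene was called at 0.1, 1, 10 or 100 mg/kg, where limma called 0 of the 11275 genes and 462, 657, 721 and 415 had an unadjusted p under 0.05. At 100 mg/kg 1 of the 4, Cyp3a9, had such a p. All 4 had one at 300 mg/kg, where 7.89% of all genes did, and 3 of the 4 at 500 mg/kg, where 13.9% did. For Cyp3a23-3a1 the 95% interval at 100 mg/kg ran from -0.11 to 0.23, below the change measured at 300 mg/kg. For Cyp3a18 it ran from -0.01 to 0.37 around 0.18.

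The step between neighbouring doses was tested directly. From 100 to 300 mg/kg Cyp3a23-3a1 differed by 0.42 (SE 0.09), the smallest p of all genes in that contrast, yet with a limma adjusted p of 0.53. Limma called 0 genes in it, with 717 at an unadjusted p under 0.05. Cyp3a18 differed by 0.30 (SE 0.10, adjusted p = 0.666), Cyp3a2 by 0.08 (SE 0.04, adjusted p = 0.814) and Cyp3a9 by -0.08 (SE 0.37, adjusted p = 0.98). From 300 to 500 mg/kg Cyp3a23-3a1 differed by 0.09 (95% interval -0.09 to 0.27), Cyp3a18 by 0.14 (-0.06 to 0.34), Cyp3a9 by 0.23 (-0.53 to 0.99) and Cyp3a2 by -0.07 (-0.17 to 0.02), with 0 genes called and 648 at an unadjusted p under 0.05. The top 2 doses were thus not told apart for any of the 4, and the intervals leave room for a further step of up to 0.34 for Cyp3a18 and 0.99 for Cyp3a9.

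Over the whole series, with the 7 doses as ranks from 0 to 6, 3 of the 4 genes rose, where 1.84% of all genes were called and 0.674% rose. Cyp3a18 rose by 0.10 per rank (SE 0.01, limma adjusted p = 0.000731), Cyp3a23-3a1 by 0.10 (SE 0.02, adjusted p = 0.00101) and Cyp3a9 by 0.21 (SE 0.05, adjusted p = 0.0188). Cyp3a2 had a slope of 0.01 (SE 0.01, adjusted p = 0.668). A slope does not show a change at each step. For Cyp3a9 the group means were 7.82 ± 0.55 (SD, n = 5) in controls, 7.68 ± 0.45 at 0.1, 7.61 ± 0.56 at 1, 8.22 ± 0.49 at 10, 8.68 ± 0.47 at 100, 8.60 ± 0.88 at 300 and 8.84 ± 0.54 at 500 mg/kg (SD, n = 4 each). The arrays of each neighbouring pair of groups overlapped, and of the limma tests over dose in liver Cyp3a9 passed only the trend.

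Because the 4 probe sets share each array, their changes were compared within arrays, as the difference of 2 log2 values at a dose and in the controls, for all 6 pairs at both top doses. Cyp3a23-3a1 changed more than Cyp3a2, by 0.40 at 300 mg/kg and 0.56 at 500 mg/kg. Cyp3a18 also changed more than Cyp3a2, by 0.38 and 0.60. In each of these 4 comparisons all 4 dosed arrays exceeded every control (exact permutation p = 0.00794, two-sided, 0.0238 adjusted over the 12). Cyp3a23-3a1 and Cyp3a18 differed from each other by 0.01 at 300 mg/kg and -0.04 at 500 mg/kg, each with an exact permutation p of 0.929. Without control array 1, where Cyp3a18 was lowest, the difference at 300 mg/kg was 0.0768 (exact permutation p = 0.0286, not adjusted over the 12). For Cyp3a9 against Cyp3a2 at 500 mg/kg the difference was 1.00 with 3 of 4 arrays above every control, and it missed the threshold (exact permutation p = 0.0556, 0.133 adjusted). Since Cyp3a2 lies near the top of the scale, where flattening was not tested, the 6 differences from it compare log2 RMA values and may not equal differences in RNA.

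Across the 29 liver arrays, which share 7 dose groups, Cyp3a23-3a1 and Cyp3a18 had a Pearson r of 0.90 and a Spearman rho of 0.86. With each dose group's mean removed r was 0.64, so the likeness was not only that of the group means. Cyp3a9 had r of 0.53 with Cyp3a23-3a1 and 0.54 with Cyp3a18, or 0.19 and 0.17 within dose groups. Cyp3a2 and Cyp3a9 had r of -0.02. Cyp3a2 and Cyp3a23-3a1 had r of 0.42, and 0.56 within dose groups. These values are descriptions, and the points share arrays; whether similar genes share RNA on these probe sets was not tested.

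**Figure D3:**
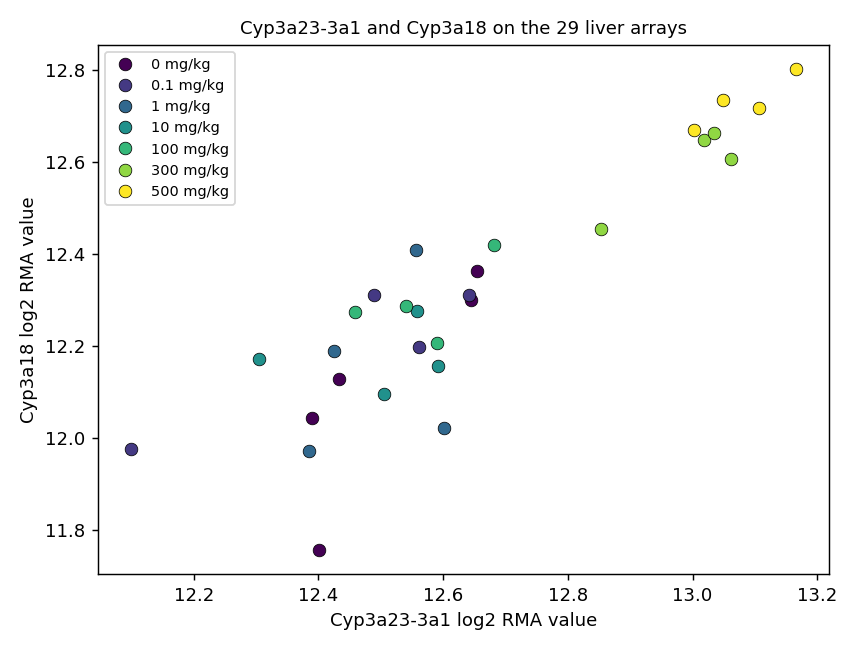
Cyp3a18 against Cyp3a23-3a1, both as log2 RMA values, 1 point per liver array coloured by MCHM dose. All 8 arrays at 300 and 500 mg/kg sit in the upper right, and the arrays at lower doses reach at most 12.68 for Cyp3a23-3a1 and 12.42 for Cyp3a18.

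Of the other 11274 genes tested in liver, the 5 most like each Cyp3a gene were listed by Pearson r over the 29 arrays. For Cyp3a23-3a1 they were Cyp3a18, the sterol isomerase homologue Ebpl (r = 0.84), the carboxylesterase Ces2c (0.84), the glycolytic enzyme Pgam1 (0.79) and the peroxisomal enzyme Ehhadh (0.76). Cyp3a18 shared Ces2c (0.81), Ebpl (0.79) and Pgam1 (0.78) with it, and was also like the cytochrome Cyp2c22 (0.80). With each dose group's mean removed, r with Cyp3a23-3a1 was 0.53 for Ebpl, 0.51 for Pgam1, 0.46 for Ces2c and 0.30 for Ehhadh, and r with Cyp3a18 was 0.54 for Cyp2c22. A gene picked for its likeness across dose groups to one that rose must tend to rise too, so the changes that follow are descriptions. At 500 mg/kg Ces2c rose by 0.81 (SE 0.14, limma adjusted p = 0.00515), Ehhadh by 0.64 (adjusted p = 0.00787) and Ebpl by 0.29 (adjusted p = 0.0248), whereas Cyp2c22 differed by 0.45 (adjusted p = 0.071) and Pgam1 by 0.13 (adjusted p = 0.176). Ces2c had 8.26, 8.54, 8.16 and 7.99 at 500 mg/kg, against 7.48, 7.74, 7.42, 7.24 and 7.28 in controls, and at 300 mg/kg it had 8.03, 7.99, 8.43 and 7.86. Its arrays at both doses lay above all controls, as those of Cyp3a23-3a1 and Cyp3a18 did. Over the dose ranks limma called the trend of Ces2c, Ehhadh, Ebpl and Cyp2c22 (0.07 per rank, adjusted p = 0.0394), but not that of Pgam1 (adjusted p = 0.099).

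Cyp3a9 resembled other genes. Its list was led by Orm1, an acid glycoprotein of plasma (r = 0.75), and Prodh, the mitochondrial proline dehydrogenase (0.74), followed by the methyltransferase Mettl7b (0.70), Spata2 (0.69) and the zinc finger gene Zfp878 (0.68). Orm1 rose at 500 mg/kg by 0.65 (limma adjusted p = 0.04), and Prodh differed by 0.57 (adjusted p = 0.0543) on the probe set used and by -0.05 on its other one. Both were called for the trend over dose ranks on the probe sets used (limma adjusted p = 0.0127 for Orm1 and 0.0125 for Prodh). For Cyp3a2 the most alike were Ippk, an inositol phosphate kinase (0.66), the calmodulin gene Calm2 (0.62), Cyp2c6v1 (0.62), the mucin gene Muc5b (0.61) and the linker histone gene H1f2 (0.60). Limma called 0 of these at 500 mg/kg, where 0.958% of all genes were called. The lists overlapped only between Cyp3a23-3a1 and Cyp3a18. Each was cut at 5 genes, and whether the 4 Cyp3a genes form separate groups was not tested.

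The genes around the Cyp3a enzymes were read by role, beginning with the receptors. Of 10 tested receptors and co-regulators 0 were called by limma at 300 or 500 mg/kg, where 0.0266% and 0.958% of all genes were called. PXR itself, Nr1i2, had 8.73, 8.62, 8.74 and 8.20 at 500 mg/kg, against 8.50, 8.83, 8.34, 8.58 and 8.59 in controls, a change of 0.00 (SE 0.10). CAR, Nr1i3, differed by 0.17 (SE 0.22, limma adjusted p = 0.8). With the smallest p of the list, the liver transcription factor Cebpa differed by 0.44 (adjusted p = 0.222) and Nr0b2, a repressor of nuclear receptors, by -0.52 (adjusted p = 0.422). A receptor's activity is not read from its transcript.

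Of 14 other PXR and CAR targets tested, limma called 1 at 500 mg/kg, Ces2c, which was higher. Of all genes 0.958% were called at that dose and 0.488% were called higher. Above 0 lay 11 of the 14. Their median was 0.13, against 0.59 for the 4 Cyp3a genes and 0.01 over all genes. The glutathione transferase Gsta3 differed by 0.97 (SE 0.35, limma adjusted p = 0.185) and the uptake carrier Slco1a4 by -0.27 (adjusted p = 0.103). At 300 mg/kg 0 of the 14 were called, with a median of 0.09, where 0.0266% of all genes were called. For the trend over dose ranks 2 of the 14 were called, both higher, where 1.84% of all genes were called and 0.674% rose. Ces2c was 1 of them, at 0.13 per rank (limma adjusted p = 0.0032). The slopes ran from -0.04 to 0.18, with 8 of the 14 above 0. Of the Cyp2b family, which has phenobarbital-responsive members, only Cyp2b3, a form not known for induction, was on the tested list. It differed by 0.00 (SE 0.05), a value that does not bear on the responsive members.

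At 500 mg/kg limma called 0.488% of all genes higher and 0.47% lower. Among the 33 tested other genes of families Cyp1 to Cyp4, 2 rose at that dose and 0 fell. They were the fatty acid hydroxylase Cyp4a1, by 0.69 (SE 0.15, limma adjusted p = 0.0217), and Cyp2d4, by 0.38 (SE 0.09, adjusted p = 0.041), whose other probe set differed by -0.32 (adjusted p = 0.714). Cyp4a1 had 11.66, 11.40, 12.01 and 11.66 at 500 mg/kg, against 10.90, 11.35, 11.07, 10.82 and 10.85 in controls. At 300 mg/kg it averaged 11.05 ± 0.23 (SD, n = 4), against 11.00 ± 0.22 (SD, n = 5) in controls, a change that was not called; whether its dose pattern differs from that of Cyp3a23-3a1 was not tested. The median of the 33 genes was 0.05 at 500 mg/kg. Limma called 1 of the 33 for the trend over dose ranks, higher, where 1.84% of all genes were called and 0.674% rose.

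**Figure D4:**
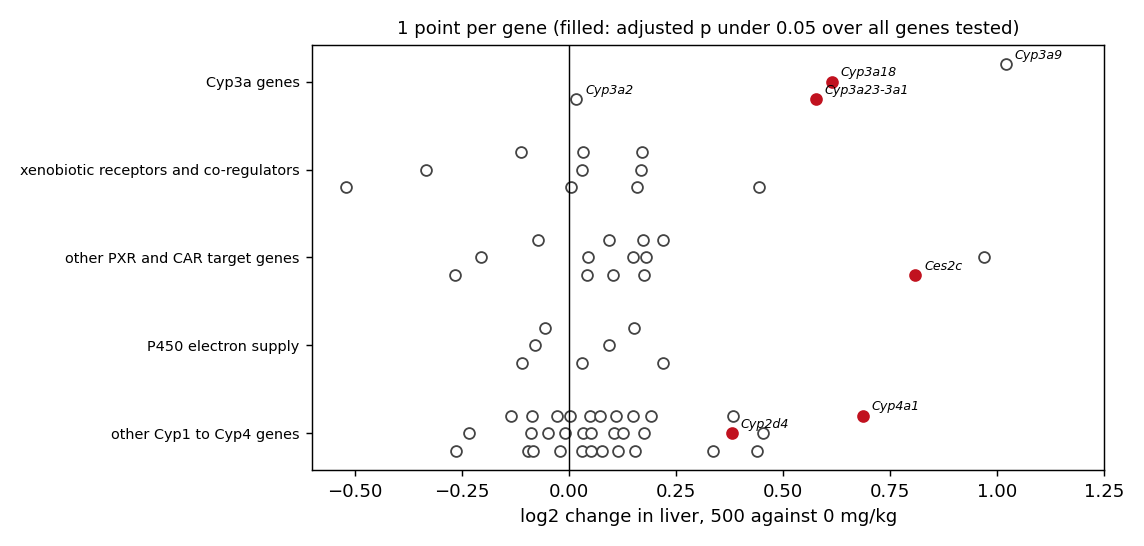
Log2 change in liver at 500 mg/kg against 0 mg/kg (x axis) for each tested gene of 5 groups (rows), with filled points at an adjusted p under 0.05. Cyp3a23-3a1, Cyp3a18, Ces2c, Cyp4a1 and Cyp2d4 are filled, and most other cytochromes lie near 0.

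Of 7 tested genes listed for electron supply to cytochromes P450, limma called 0 at 300 or 500 mg/kg. At these doses 0.0266% and 0.958% of all genes were called. With the smallest p, a cytochrome b5 gene, Cyb5b, differed by 0.22 (limma adjusted p = 0.158) and the b5 reductase Cyb5r3 by 0.15 (adjusted p = 0.532). Which of the listed genes serve CYP3A enzymes was not tested. Por, the main P450 reductase, differed by 0.09 (SE 0.20, adjusted p = 0.89). Since growth hormone sets the sex bias of several rat Cyp genes, 13 tested genes of that axis were also read. The growth hormone receptor Ghr fell by 0.30 on its brightest probe set (SE 0.06, limma adjusted p = 0.0166), whereas the change on its second one was -0.05 (adjusted p = 0.92). The male-biased Cyp2c11 differed by 0.05 (SE 0.07) and Cyp2c13 by 0.05 (SE 0.03), and neither was called.

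Cell type markers were set beside these changes, because whole-organ RNA cannot tell fewer cells of a type from less RNA per cell. At 500 mg/kg 1 of 6 hepatocyte markers was called, Apoa1, which fell by 0.30 (limma adjusted p = 0.0245), and the median of the 6 was -0.07. Of all genes 0.958% were called at that dose and 0.47% were called lower. All 4 Kupffer cell markers and all 5 stellate cell markers lay below 0, with medians of -0.28 and -0.24, and limma called 0 of them at that dose. For the trend over dose ranks it called 1 of the 4 Kupffer cell markers, lower, and 0 of the 5 stellate cell markers, where 1.17% of all genes were called lower. The mean of the Kupffer cell markers ranged over 7.90 to 8.33 at 500 mg/kg and 8.25 to 8.43 in controls. The part of cell composition in the Cyp3a changes was not tested beyond these values.

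In kidney no Cyp3a gene passed the filter. Cyp3a23-3a1, Cyp3a18 and Cyp3a9 were above the array's 40th percentile (4.62 to 4.70) on 0 of 29 kidney arrays and Cyp3a2 on 1. The levels had medians of 2.90 for Cyp3a23-3a1, 3.23 for Cyp3a18, 3.51 for Cyp3a9 and 2.93 for Cyp3a2. The 1 exception was the second kidney control array, which stood apart from the other 28. There Cyp3a2 was 6.21, against 2.61 to 3.30 on the others, Cyp3a23-3a1 was 3.97, against 2.62 to 3.32, and Cyp3a18 was 3.91, against 2.93 to 3.53. Cyp3a9, at 3.92, ranked 5 of 29. All 6 hepatocyte markers were highest on the same array, with Alb at 10.19, against 3.75 to 7.28, and Ttr at 8.44, against 4.27 to 6.73. On the other 28 arrays the medians were 2.90 for Cyp3a23-3a1, 3.22 for Cyp3a18 and 2.90 for Cyp3a2, and the dose comparisons in kidney are given with and without it.

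**Figure D5:**
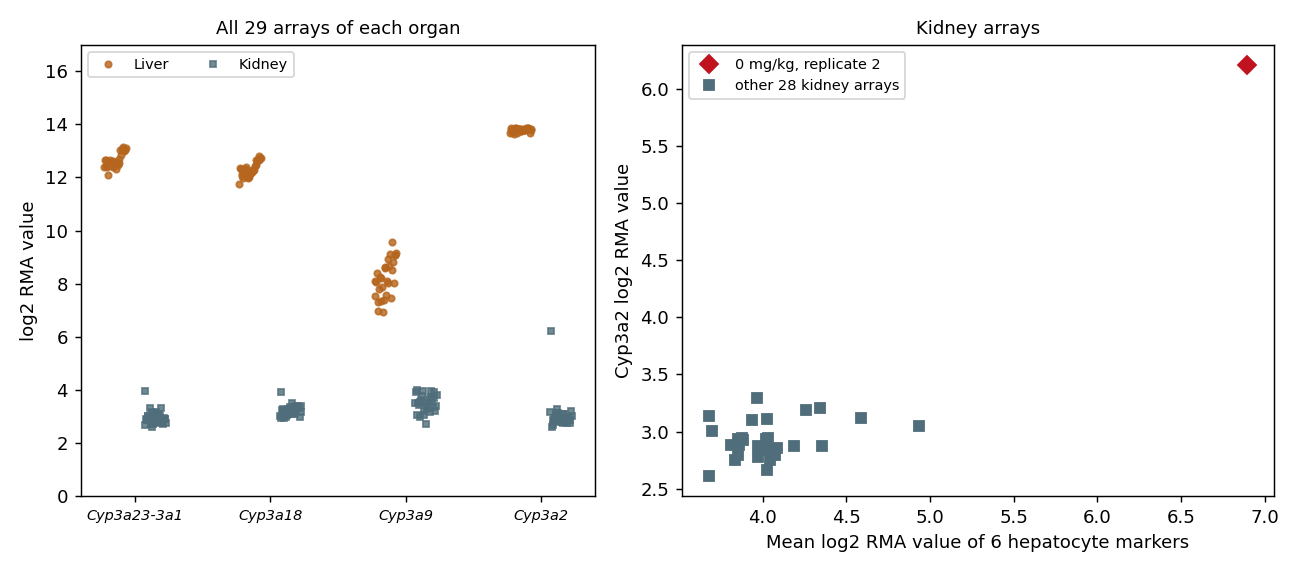
Left, log2 RMA values of each Cyp3a probe set on all 29 arrays of each organ, liver left of kidney; right, Cyp3a2 on the 29 kidney arrays against the mean of 6 hepatocyte markers. Liver and kidney do not overlap for any of the 4, and 1 control kidney array, at 6.21 for Cyp3a2, also has the highest marker mean. Limma called 77.2% of 11801 genes between untreated liver and untreated kidney.

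Fitted without the filter on low values, no Cyp3a gene was called in kidney at any dose or for the trend. In these fits limma called 0.0141% of 14217 genes at 500 mg/kg, 0.0211% at 300 mg/kg, 0 at each lower dose and 0.106% for the trend. Without the array that stood apart the shares were 0.0211%, 0.00703%, 0 and 0.0633%, and no Cyp3a gene was called either. At 500 mg/kg Cyp3a23-3a1 differed by -0.21 (SE 0.18, limma adjusted p = 0.789), Cyp3a18 by -0.06 (SE 0.13), Cyp3a9 by -0.08 (SE 0.21) and Cyp3a2 by -0.54 (SE 0.41, adjusted p = 0.747). Without the array that stood apart they differed by 0.01, 0.09, 0.0019 and 0.13, so the negative sign of the 4 rested on it. At 300 mg/kg Cyp3a23-3a1 differed by -0.15, Cyp3a18 by 0.05, Cyp3a9 by 0.11 and Cyp3a2 by -0.65 with all arrays, and by 0.0668, 0.21, 0.19 and 0.0288 without that one. The values are near background, and a small change in kidney could not have been read at these levels.

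The effects of 500 mg/kg in liver and kidney were also set against each other in 1 fit over both organs without the filter. No label ties a liver array to the kidney array of the same animal, so the fit treated all 58 arrays as independent. Of all genes 0.0914% were called, and 0.0703% without the kidney array that stood apart. No Cyp3a gene was called, with limma adjusted p of 0.0865 to 0.834 with all arrays and 0.157 to 0.929 without that one. Because the kidney values lie at background, this comparison does not bear on whether the liver changes are limited to liver.

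In the control animals the values of each of the 4 genes in liver and kidney did not overlap. Differences between these organs were common, since limma called 77.2% of 11801 genes between untreated liver and untreated kidney. The share of all genes without overlap was not counted. Cyp3a2 had 13.66 to 13.85 in liver and 2.61 to 6.21 in kidney, or at most 3.19 in kidney without the array that stood apart. Cyp3a23-3a1 had 12.39 to 12.65 in liver and 2.70 to 3.97 in kidney, and Cyp3a18 had 11.76 to 12.36 in liver and 2.96 to 3.91 in kidney. For Cyp3a9, the lowest of the 4 in liver, they were 6.99 to 8.39 in liver and 3.06 to 3.98 in kidney. All 4 passed the filter on low values only through liver, so no test of the 4 in this contrast is given. With kidney at background the size of the difference was not measured.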

How the data were processed

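RNA from liver and kidney was measured on Affymetrix Rat Genome 230 2.0 arrays, per the labels' protocols. The deposited values are on the log2 scale and were made by the authors with RMA, per the submitters' processing notes; its version, and whether the organs were normalised together, are not given in the sources used here. RMA fits together the arrays it is given, here not known to be all of them, and adjusts no probe for copies of a gene. From 31099 probe sets, 57 control probe sets were left out, 20826 had 1 gene symbol in GEO's platform annotation, 436 several and 9780 none. Probe sets had to exceed the 40th percentile of their array in 4 or more arrays of an organ, and the brightest stood for its gene. Groups came from the sample titles.

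Within each organ limma 3.58.1 (R 4.3.3, eBayes with an intensity trend) compared each dose with 0 mg/kg over all 29 arrays, and tested neighbouring doses and a trend over dose ranks. P-values were adjusted over all genes by Benjamini-Hochberg. The scripts were tested on simulated data. Exact permutation tests used 126 splits. RefSeq promoters (GRCr8) were found for all 4 genes and aligned with Biopython 1.88. The genes named were all Cyp3a genes, for each the 5 most correlated genes, and from each list the members called at 300 or 500 mg/kg, otherwise the 2 with the smallest p at 500 mg/kg. Some other genes (Gsta3, Slco1a4, Nr1i2, Nr1i3, Cyp2b3, Cyp2c11, Cyp2c13, Por, Alb, Ttr) were named after their values were seen. The members and lists were chosen with earlier results of these data known.

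Same-numbered dosed and control arrays did not deviate together. Correlations ran from -0.23 to 0.23 in liver and -0.36 to 0.44 in kidney, and in 0 of 6 comparisons per organ did all pairs exceed 0.1, so the numbers were not used as pairs. No 2 arrays were duplicates, with pairwise r at most 0.994 in liver and 0.9963 in kidney. Alternatives covered the filter, the probe set rule, normalisation, the variance model, array weights, the block, the groups fitted and each array left out.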

Additional observations from a re-analysis of the deposited data

Results flagged for a closer look

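Each of the 56 groups of a gene, organ and dose was screened for an array far from the others by Dixon's test, which flags about 1 in 20 by chance, and 8 stood out. In liver, Cyp3a9 was low on replicate 1 at 500 mg/kg (8.02, against 9.07 to 9.17 on the other 3 arrays). Cyp3a2 was low on replicate 1 at 0.1 mg/kg (13.65), on replicate 1 at 1 mg/kg (13.68) and on replicate 2 at 500 mg/kg (13.69), and high on replicate 3 at 100 mg/kg (13.80, against 13.77 on the others), all gaps of under 0.2 log2 units. In kidney, replicate 2 of the controls was high for Cyp3a2 (6.21, against 2.61 to 3.19) and for Cyp3a23-3a1 (3.97, against 2.70 to 3.02), and replicate 4 at 100 mg/kg was high for Cyp3a18 (3.39, against 3.09 to 3.14).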

How the results depend on the processing

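The 2 calls at 500 mg/kg were made in all 11 alternatives and all 9 fits without 1 array, and the 3 trend calls in all 11 and all 29. The trend call of Cyp3a9 came near the threshold, with limma adjusted p up to 0.0478 in the alternatives and 0.0498 without 1 array. For Cyp3a23-3a1 and Cyp3a18 the trend adjusted p was at most 0.00605 and 0.00444. Only the count at 300 mg/kg moved from its 1 call. It was 2 after quantile normalisation (Cyp3a18, adjusted p = 0.0399) and 0 with a replicate block or with only the compared groups (Cyp3a23-3a1, adjusted p = 0.0844 and 0.0573), and it ranged from 0 to 2 without 1 array; the cause was not tested. The block changed no other Cyp3a call. Over all genes the calls at 500 mg/kg in liver ranged from 33 (block) to 263 (array weights), against 108, at 300 mg/kg from 0 to 4, against 3, and for the trend from 160 to 813 (with a linear term for the dose in mg/kg), against 208. Without 1 array they ranged from 42 to 110, 0 to 6 and 80 to 255.

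Reversed signs occurred only among differences not called with all arrays. Without 1 array, Cyp3a2 ranged from -0.0161 to 0.0309 at 100 mg/kg and from -0.0102 to 0.0483 at 500 mg/kg, and Cyp3a9 from 100 to 300 mg/kg ranged from -0.41 to 0.30. Cyp3a23-3a1 minus Cyp3a18 was -0.0071 at 300 mg/kg after quantile normalisation, and without 1 array -0.0118 to 0.0768 there (exact permutation p = 0.0286 at the highest, without control array 1, against 0.929) and -0.0618 to 0.0269 at 500 mg/kg. Less Cyp3a9, at 300 mg/kg, Cyp3a23-3a1 ranged from -0.69 to 0.0037 and Cyp3a18 from -0.71 to 0.0101. Without the second kidney control array, chosen after seeing the data, the unfiltered kidney changes of Cyp3a23-3a1 were 0.0668 and 0.0115 (300 and 500 mg/kg), those of Cyp3a2 0.0288 and 0.13, and at 500 mg/kg those of Cyp3a18 0.0936 and of Cyp3a9 0.0019. Groups of 4 and 5 arrays limit all of these, and kidney signals near background limit what could be read there.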
